A study of Sminthopsis crassicaudata with 9 samples.

Results

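The genes described here are the secreted ligands, receptors and inhibitors of the WNT pathway in the newborn face of the fat-tailed dunnart, Sminthopsis crassicaudata, a small carnivorous marsupial. They were chosen by symbol from the table of RNA counts, which held 47 of them among 21703 gene models, 14169 of which carried a symbol. By role they were 16 WNT ligands, 10 Frizzled receptors (FZD), the 2 co-receptors LRP5 and LRP6, 4 R-spondin ligands (RSPO), 3 LGR receptors, 9 secreted inhibitors (SFRP1, SFRP2, SFRP4, SFRP5, WIF1 and DKK1 to DKK4) and 3 intracellular members (CTNNB1, AXIN1 and AXIN2). The choice used names only and no measured value. The symbols WNT1, WNT2, WNT7B and FRZB matched no row and were not analysed here.

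All samples came from the face of untreated pouch young on the day of birth, under 24 hours old, and no mutant, treated or older group was part of the series. The tissue was the frontonasal, maxillary and mandibular prominences, without tongue, neural tube and eye primordia. Chromatin immunoprecipitation and sequencing (ChIP-seq) was done in 2 replicates for the histone marks H3K4me3 and H3K27ac, each against the input DNA of its own pool, which the labels describe as 26 and 27 heads. The total number of young in the study's methods differs from the sum of these. RNA sequencing was done in 3 libraries (FP1, FP2 and FP3), each from a pool of 2 young. With pooled animals of a single age there was no group to compare, so levels are given with their spread over libraries or replicates and without tests, and that spread describes pools rather than individual young.

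In the canonical WNT pathway a WNT ligand joins a Frizzled receptor to LRP5 or LRP6, a complex of AXIN and its partners stops marking beta-catenin (CTNNB1) for destruction, and beta-catenin enters the nucleus with TCF/LEF factors. R-spondins acting through LGR receptors keep Frizzled proteins at the cell surface, whereas SFRP and WIF1 proteins bind the ligands and Dickkopf proteins such as DKK1 block the co-receptors. Other ligands, of which WNT5A is the best known, act mainly through routes without beta-catenin that orient cells and drive the outgrowth of limb buds and facial prominences, and WNT signalling between ectoderm and mesenchyme shapes the lip, palate, teeth and skin appendages.

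RNA totals were 16096971 to 17419099 counts in exons per library, and log2 levels of the libraries correlated with r of 0.985 to 0.988 over all gene models and 0.969 to 0.976 over the members. Markers of facial mesenchyme were expressed in 10 of 10 genes and of epithelium in 7 of 7. Skeletal muscle markers were expressed in 5 of 6 genes, with summed levels of 11879 to 16707 TPM (a transcript level scaled by gene length and library size) per library. Of 4 liver markers only APOA1 had a gene model, with 0.75, 1.53 and 4.48 TPM in FP1, FP2 and FP3. It missed the rule for expression, over 1 TPM in all 3 libraries, through FP1 alone. Markers were also expressed for blood in 3 of 4 genes (ALAS2 at 195 TPM), for endothelium in 3 of 3 and for neural tissue in 4 of 6 (TUBB3 at 44.8 TPM), so the tissue was mixed. In such mixed bulk tissue, a low level from fewer expressing cells cannot be told apart from one due to less RNA in each cell.

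TPM scales the counts by the summed exon length of each gene model, so that levels can be set side by side between genes. A gene was called expressed when it exceeded 1 TPM in all 3 libraries. By that rule 38 of the 47 members were expressed (80.9%), beside 75.3% of gene models with a symbol and 56.5% of all gene models. The median member stood at 14.4 TPM and the median model with a symbol at 12.8 TPM. The members thus lay close to other named genes in level, and their range ran from no count at all to 559 TPM.

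WNT5A was the ligand with the highest mean level. Its TPM was 58.5, 114 and 100 in FP1, FP2 and FP3, a mean of 91.1 ± 29.1 (SD, n = 3). WNT6, an ectodermal ligand, followed with 101, 58.7 and 82.4 TPM, a mean of 80.7 ± 21.2. Library FP1 was lowest for WNT5A and highest for WNT6, and the ranges of the ligands overlapped, so the data do not order them. Together they made up 55.2% of the summed TPM of all 16 WNT genes (54.0% to 57.4% over libraries), and the share of WNT5A alone ran from 19.8% to 35.7%.

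WNT10A, a ligand of teeth, hair and skin appendages, came next at 38.1 ± 10.5 TPM, below every library's value for WNT6. It lies beside WNT6 on the same strand of scaffold 00001 of the study's dunnart assembly, with start sites 35.4 kb apart, and FP2 was the lowest library for both. WNT4, known from kidney and gonad development as well as from epithelia, reached 29.1 ± 6.27 TPM. WNT11, a ligand of cell movement routes, reached 20.1 ± 3.13 TPM, and WNT2B had 14.4 ± 3.46 TPM. WNT3, a canonical ligand of lip and limb ectoderm, had 10.1 ± 1.69 TPM. WNT5B, the paralog of WNT5A, had 8.78 ± 2.74 TPM. WNT7A, a ligand of dorsal limb ectoderm, had 7.41 ± 2.34 TPM.

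A lower group of expressed ligands held WNT3A (1.22, 5.18 and 3.70 TPM), WNT16 (2.40, 5.12 and 1.70 TPM) and WNT9B (1.71, 5.05 and 1.96 TPM). All were highest in FP2, and the ranges of neighbours in this order overlapped. WNT9B is needed for fusion of the lip in mice, and its neighbour WNT3 was the higher of the pair in every library. WNT9A, at 0.98, 2.91 and 1.36 TPM, missed the expression rule through FP1 alone.

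The remaining ligands were at or near zero. WNT8B, best known from the forebrain, had 9, 5 and 2 counts, or 0.61 TPM on average. WNT8A, a ligand of the early embryo, had no count in any library on a model of 6 exons, and 3 counts would have given 0.16 to 0.20 TPM. The model named WNT10B also had no count, but it was a single exon of 603 bases. None of its 20 nearest named genes, 10 on each side, was among those of WNT10B in the RefSeq table of another dunnart assembly (ASM4859323v1): the model lay beside TBL1XR1, whereas RefSeq places WNT10B beside WNT1. Of the 46 members with a RefSeq symbol it was the only one to share no neighbour, and 45 shared at least 5. The zero of this model therefore gives no level for WNT10B.

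**Figure D1:**
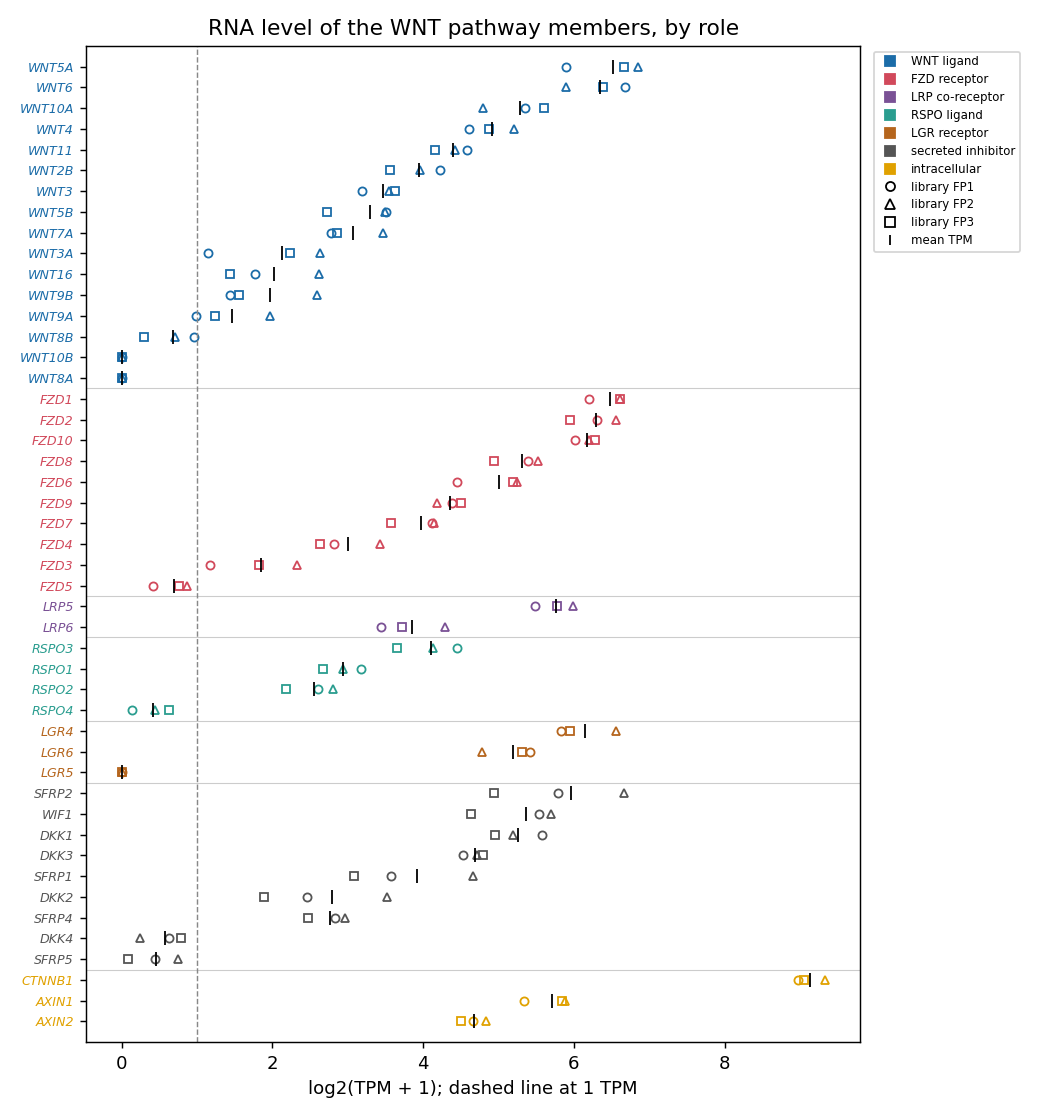
RNA level of each of the 47 members on the log2(TPM + 1) scale, grouped by role; open symbols are the 3 libraries, black ticks the mean TPM, and the dashed line marks 1 TPM. WNT5A and WNT6 lead the ligands with overlapping ranges, FZD1, FZD2 and FZD10 lead the receptors, and WNT8A, the WNT10B model and LGR5 sit at 0 in all libraries.

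Frizzled receptors, the membrane proteins that bind WNT ligands, were expressed in 9 of 10 cases. FZD1 had 72.7, 96.7 and 96.5 TPM in FP1, FP2 and FP3, a mean of 88.7 ± 13.8. FZD2 had 78.1, 93.8 and 60.9 TPM, a mean of 77.6 ± 16.5. FZD10 had 63.9, 72.5 and 76.6 TPM, a mean of 71.0 ± 6.47. Their ranges overlapped from each to the next, and together they held 67.5% of the summed Frizzled TPM, with a spread over libraries of only 66.9% to 68.7%.

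FZD8 followed at 38.6 ± 7.92 TPM, below every library's value for FZD10. FZD6, a receptor of planar cell polarity that aligns hairs, had 31.1 ± 8.95 TPM, FZD9 had 19.8, 17.1 and 21.7 TPM and FZD7 had 14.7 ± 3.23 TPM. FZD4, which also binds Norrin in growing vessels, had 7.01 ± 2.43 TPM, and FZD3, the partner of FZD6 in planar polarity and axon guidance, had 2.60 ± 1.38 TPM. FZD5 was the receptor called not expressed, at 0.34, 0.82 and 0.70 TPM. From FZD9 downwards no library range overlapped the next, so the order FZD9, FZD7, FZD4, FZD3, FZD5 held in every library.

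Of the co-receptors, LRP5 had 43.9, 62.8 and 53.7 TPM and LRP6 had 9.85, 18.5 and 12.1 TPM. LRP5 was higher in each library and held 80.1% of their summed TPM (77.2% to 81.7%). This is a difference in RNA per exon length and says nothing of protein at the membrane. The summed exon length was 4505 bases for LRP5 and 10453 bases for LRP6. Before scaling by length, LRP5 had 1792, 2112 and 1971 counts and LRP6 had 934, 1445 and 1034, a smaller gap.

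Among the R-spondins, RSPO3 led with 20.8, 16.5 and 11.6 TPM. RSPO1 had 6.68 ± 1.32 TPM and RSPO2, known from limb and lower face development, had 4.86 ± 1.23 TPM, with overlapping ranges. RSPO4, needed for nails, had 1, 3 and 5 counts, or 0.33 TPM. Their summed TPM was low, at 21.0 to 34.0 per library, against 97.6 to 120 for the LGR receptors that bind them. LGR4 had 55.7, 93.6 and 60.6 TPM and LGR6, known from skin stem cells, had 41.9, 26.5 and 38.7 TPM. The library FP2 was the highest for LGR4 and the lowest for LGR6.

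LGR5, a stem cell marker of gut and hair follicle, had no count in any library, and 3 counts would have given 0.23 to 0.28 TPM. Its model held 9 exons and 1424 bases, whereas the models of LGR4 and LGR6 held 18 exons each, so the zero covers only those 9 exons. Its neighbours did match those in RefSeq, with 16 of 19 shared.

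Secreted inhibitors were expressed in 7 of 9 cases and varied more between libraries than the other roles, with a median coefficient of variation of 35.6%. SFRP2, which binds WNT ligands, had 54.4, 100 and 29.9 TPM. WIF1 had 45.3, 51.0 and 24.0 TPM. DKK1, the co-receptor antagonist needed for head formation, had 46.7, 35.6 and 30.0 TPM. Neighbours in this order overlapped, and FP3 was the lowest library for each of these genes.

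DKK3, a divergent Dickkopf, was steady at 24.7 ± 2.43 TPM. SFRP1 had 10.9, 24.2 and 7.47 TPM. DKK2 had 4.51, 10.5 and 2.72 TPM, and SFRP4, known from bone, had 5.82 ± 1.14 TPM. DKK4 (0.48 TPM) and SFRP5 (0.37 TPM) were not expressed. The summed TPM of the inhibitors was 191, 255 and 126 in FP1, FP2 and FP3, a wider relative spread than the 295 to 321 of the WNT ligands.

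Inside the cell, CTNNB1, which also anchors cadherins at cell contacts, had 505, 643 and 529 TPM, the highest level of any member. AXIN1, the scaffold of the destruction complex, had 51.4 ± 10.2 TPM. AXIN2, a scaffold that is itself a widely used target gene of the canonical pathway, had 24.4, 27.5 and 21.7 TPM, with no overlap with AXIN1.

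The libraries differed in a shared way. FP2 was the highest library for 25 of the 38 expressed members (65.8%), but also for 62.4% of all expressed models with a symbol, so this is not particular to the members. In FP2 the summed TPM of the muscle markers was 11879, against 15366 in FP1 and 16707 in FP3, and that of the epithelial markers was 1322, against 840 and 1237. Their part in the spread of the members was not tested. The largest ratios of the highest to the lowest library were 4.25 for WNT3A, 3.84 for DKK2, 3.36 for SFRP2, 3.25 for SFRP1 and 3.20 for FZD3, whereas FZD10 had 1.20. The median coefficient of variation was 24.7% over expressed members and 20.9% over expressed models with a symbol. Within roles, 21 of 40 neighbouring pairs in the order of mean TPM had overlapping library ranges.

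H3K4me3 marks the start sites of active or poised genes, and H3K27ac marks active start sites and active enhancers. Peaks were taken as reproducible where both replicates had a peak at q under 0.05 and the shared stretch covered at least 50% of either peak, which left 108146 peaks for H3K4me3 and 148724 for H3K27ac. Their strength is the fold enrichment over input, given as the mean of the replicates or as both values, and the number of reads behind a single peak is unknown from the lists.

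Start sites are those of Tasmanian devil gene models placed on the dunnart assembly, so a start that differs in the dunnart would be misplaced. A reproducible H3K4me3 peak lay within 1 kb of the annotated transcription start site (TSS) of 43 of 47 members (91.5%), beside 83.1% of models with a symbol and 67.7% of all models. For H3K27ac it was also 43 of 47, beside 85.9% and 71.5%. The same 43 carried both marks, beside 82.1% and 66.3%. Every Frizzled, LRP, R-spondin and intracellular member was marked, and so were 14 of 16 WNT genes, 8 of 9 inhibitors and 2 of 3 LGR genes. WNT8B, LGR5 and DKK4 had neither mark and were not expressed. The same held for the WNT10B model, whose place in the assembly leaves both its marks and its RNA without meaning for WNT10B.

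Although most members were marked, their peaks were lower and wider than those of other named genes. Median H3K4me3 enrichment was 39.3-fold over the 43 marked members and 47.9-fold over models with a symbol, and median H3K27ac enrichment was 17.7-fold against 26.6-fold. Only 18 of the 43 lay above the H3K4me3 median of the named genes. The median H3K4me3 peak was 3095 bp wide at members and 2590 bp at named genes, and 10 of 43 (23.3%) exceeded 5 kb, beside 14.1% of marked models with a symbol.

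The roles differed in peak strength. Frizzled genes had a median of 71.7-fold for H3K4me3, the WNT ligands 35.1-fold and the secreted inhibitors 28.0-fold. The strongest H3K4me3 peak stood at LRP5, with 91.7-fold and 118-fold in replicates 1 and 2, and it was also the widest at 13066 bp. LRP5 lies at scaffold 00020, 49522538 to 49620450, on the plus strand. AXIN1 had 87.2-fold and 86.3-fold for H3K4me3. Its H3K27ac peak, with 110-fold and 78.4-fold, was the strongest of any member and stood at the 99.8th percentile of named genes with such a peak.

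Further strong H3K4me3 peaks stood at LGR4 (81.0-fold), FZD8 (80.4-fold), FZD7 (79.3-fold), FZD1 (79.1-fold), WNT5A (76.8-fold) and AXIN2 (75.5-fold). At WNT5A (scaffold 00002, 55592382 to 55612195, minus strand) the H3K4me3 peak covered 10667 bp and the H3K27ac peak 7477 bp, in a gene whose body spans 19.8 kb. At AXIN2 both peaks covered about the same stretch, 7039 and 7027 bp wide.

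**Figure D2:**
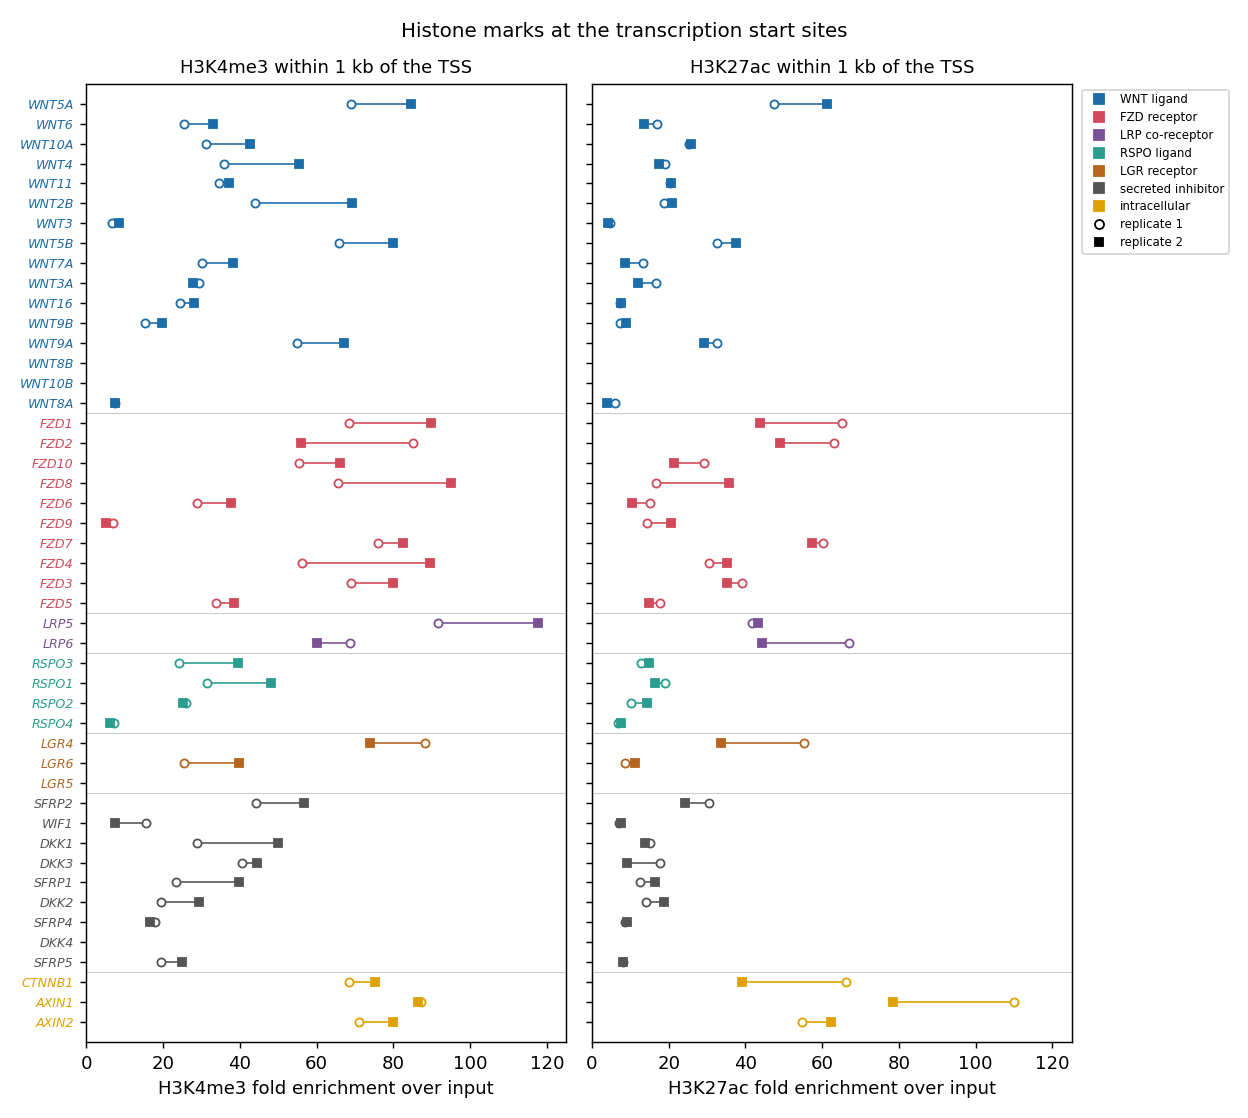
Fold enrichment over input of the strongest reproducible peak within 1 kb of the TSS for H3K4me3 (left) and H3K27ac (right), with replicate 1 as open circles and replicate 2 as filled squares; rows without symbols had no such peak. Frizzled and intracellular genes sit mostly above 50-fold for H3K4me3, whereas WNT3, WNT8A, FZD9, RSPO4 and WIF1 sit lowest.

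At the other end, H3K4me3 was 7.61-fold at WNT3, 7.43-fold at WNT8A, 6.56-fold at RSPO4 and 6.08-fold at FZD9. WIF1 had 15.4-fold and 7.57-fold, a ratio of replicate 2 to 1 of 0.49, the lowest of all members. Between these ends lay WNT9B (17.4-fold), SFRP4 (17.3-fold), SFRP5 (22.1-fold) and DKK2 (24.4-fold). At FZD9 (scaffold 00002, 182277591 to 182284788, plus strand) the strongest H3K4me3 peak within reach lay 803 bp from the annotated start, while an H3K27ac peak of 17.5-fold and 8996 bp lay 700 bp from it. H3K27ac enrichment exceeded that of H3K4me3 at 3 members, FZD9, AXIN1 and RSPO4, named after their values were seen, when the replicates were averaged. Only at FZD9 did this hold in both replicates. The order turned in replicate 2 at AXIN1 (78.4-fold H3K27ac against 86.3-fold H3K4me3) and in replicate 1 at RSPO4 (6.71-fold against 7.09-fold).

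The remaining receptors varied in enrichment. FZD4 had 72.8-fold for H3K4me3 and 32.8-fold for H3K27ac, FZD2 had 70.6-fold and 56.0-fold, and FZD10 had 60.7-fold and 25.3-fold. FZD5 and FZD6 lay below the median of named genes. FZD6 had 33.3-fold and 12.7-fold, although its RNA exceeded that of FZD4 in every library. LRP6 had 64.3-fold and 55.7-fold, and CTNNB1 had 71.9-fold and 52.7-fold, so its level of 559 TPM did not go with the strongest peak.

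Among the ligands, WNT5B (72.8-fold H3K4me3) and WNT2B (56.5-fold) stood above WNT4 (45.7-fold), WNT10A (36.9-fold), WNT11 (35.9-fold) and WNT7A (34.2-fold). WNT6, with RNA close to that of WNT5A, had 29.2-fold for H3K4me3 and 15.2-fold for H3K27ac, against 76.8-fold and 54.4-fold at WNT5A. In both replicates and for both marks the WNT5A peak was the stronger of the pair. WNT3A (28.6-fold) and WNT16 (26.3-fold) completed the lower range. The R-spondins RSPO1, RSPO3 and RSPO2 had 39.7-fold, 31.9-fold and 25.5-fold, and LGR6 had 32.6-fold. Of the inhibitors, SFRP2 had 50.4-fold, DKK3 42.5-fold, DKK1 39.3-fold and SFRP1 31.6-fold, and SFRP2 was the only one of the 8 marked inhibitors above the median of named genes for either mark.

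Replicate 2 gave higher H3K4me3 enrichment than replicate 1 at most members, with a median ratio of 1.22 (0.49 to 1.74), beside 1.17 over models with a symbol. For H3K27ac the median ratio was 0.96, with a range from 0.51 at DKK3 to 2.15 at FZD8. Differences between members smaller than these replicate ratios are not told apart here.

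Members with stronger marks tended to have more RNA, as did other named genes. Over the 43 marked members, log2(TPM + 1) and log10 H3K4me3 enrichment had a Pearson r of 0.48 and a Spearman rho of 0.51, and over 11769 named and marked models the values were 0.49 and 0.51. For H3K27ac they were 0.54 and 0.50 over members and 0.56 and 0.54 over 12159 models. These are descriptions across genes that share the same libraries, not replicates.

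Set against named genes of like RNA level, 37 of 43 members lay between the 10th and 90th percentile of H3K4me3 enrichment, with 3 above and 3 below. By definition 10% of named genes lie above this band and 10% below it, so members lay outside it no more often. Above lay LRP5, FZD3 with 74.4-fold at 2.60 TPM, and WNT9A with 61.0-fold at 1.75 TPM. The named genes at the level of FZD3 and WNT9A had a median of 26.8-fold and a 90th percentile of 57.9-fold. Below lay FZD9, WNT3 and WIF1. WIF1, at 40.1 TPM, had 11.5-fold where the named genes had a 10th percentile of 24.2-fold and a median of 60.1-fold.

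**Figure D3:**
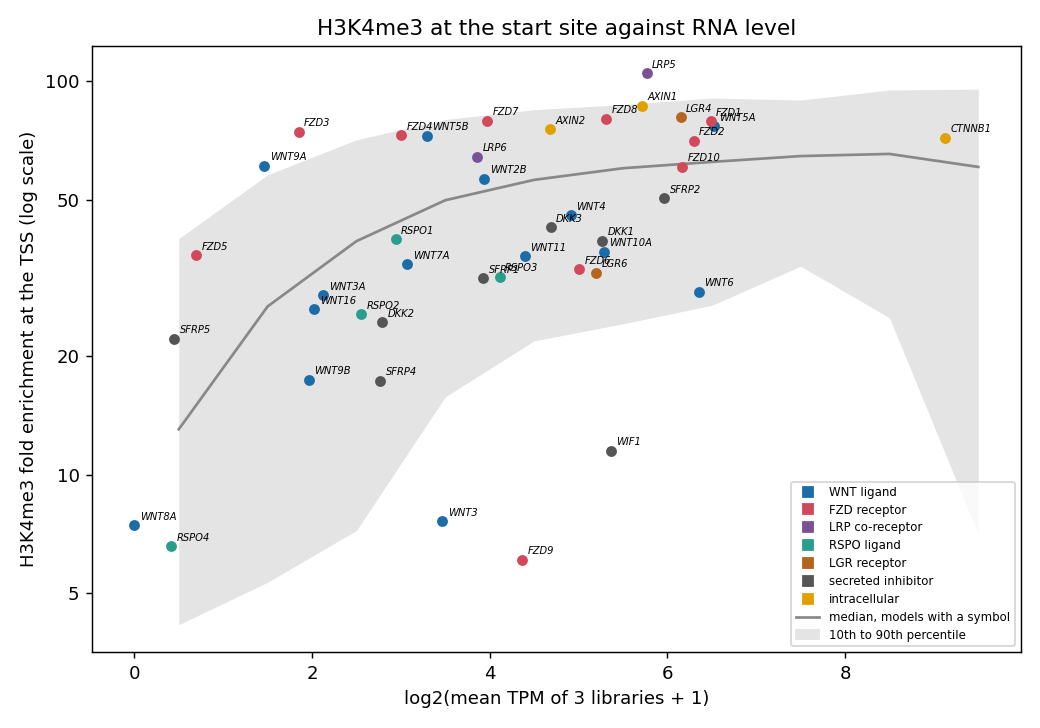
H3K4me3 fold enrichment at the TSS (log axis) against log2(mean TPM + 1) for the 43 marked members, coloured by role, over the median (line) and the 10th to 90th percentile (band) of models with a symbol in bins of 1 log2 unit. LRP5, FZD3 and WNT9A lie above the band of their bin, and FZD9, WNT3 and WIF1 below it.

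All 38 expressed members carried both marks at the TSS. Most expressed named genes also had H3K4me3 there, 9655 of 10665, so this is not particular to the members. WNT8B, LGR5 and DKK4, without H3K4me3 there, were not expressed. Of the named genes without it, 42.3% were expressed, and so few members give no share to set beside that. The start of LGR5 is that of a 9-exon model, against 18 exons for LGR4 and LGR6. Of the 43 marked members, 5 were not expressed (11.6%), beside 18.0% of marked named genes. They were WNT9A (61.0-fold), FZD5 (36.1-fold over 5317 bp), SFRP5 (22.1-fold), WNT8A (7.43-fold) and RSPO4 (6.56-fold). WNT9A, at 1.75 TPM, was the only one of them above the median of named genes in H3K4me3 enrichment. The peak of FZD5, at 0.62 TPM, was wide but below that median, and the peaks of WNT8A and RSPO4 were among the weakest of the members.

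The 4 unmarked models differed in their surroundings. The nearest H3K4me3 peak to WNT8B lay 1.95 kb downstream of its start and was weak, at 3.13-fold. Near DKK4 the nearest peak was 21.2 kb upstream, at 58.2-fold, and belonged by distance to VDAC3, a mitochondrial channel gene. The nearest to the WNT10B model lay 7.38 kb upstream, at 3.95-fold. For LGR5 the nearest was 61.2 kb upstream of the start of its 9-exon model, at 4.23-fold, and it was an H3K4me3 peak without H3K27ac.

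Away from start sites, H3K27ac without H3K4me3 is a common mark of candidate enhancers. A peak was called H3K27ac-only where it shared no base with a reproducible H3K4me3 peak, and 69124 peaks met this. At least 1 of them lay between 1 and 100 kb from the TSS of 44 of 47 members (93.6%), which is close to the 93.7% of models with a symbol and the 91.8% of all models. Their number was higher: members had a median of 11 such peaks, beside 6 for models with a symbol, with means of 9.06 and 7.29. In all, 24 members (51.1%) had 10 or more, beside 31.1% of named genes. The size of this gap depends on the definition: with peaks that touch an H3K4me3 peak of either single replicate removed as well, the medians were 4 for members and 3 for named genes, with means of 4.60 and 3.34. It also depends on the window. Within 50 kb the medians were 4 for members and 3 for named genes, and within 250 kb they were 24 and 17.

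These windows held fewer other genes, with a median of 1 other TSS near a member and 2 near a named gene. Of the 426 pairs of member and peak, 232 (54.5%) had the member as the nearest TSS, and the median of such nearest peaks was 4 per member and 1 per named gene. By location, 228 pairs lay between genes, 110 inside another gene and 88 inside the member itself. They were spread evenly, 207 upstream and 219 downstream. Their median enrichment was 4.47-fold, beside 4.22-fold over all H3K27ac-only peaks. The number of these peaks bore little relation to RNA, with a Pearson r of 0.15 and a Spearman rho of 0.16 over 47 members. Over 14158 models with a symbol the values were close to these, at 0.11 and 0.15.

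DKK1 had the most H3K27ac-only peaks, 21, and was the nearest TSS to all of them, although 11 lay inside the neighbouring gene PRKG1. No other TSS lay within 100 kb of it, and its strongest peak (scaffold 00049, 12072408 to 12074257) stood 10.3 kb upstream with 7.39-fold and 5.55-fold in replicates 1 and 2. DKK3 had 20, of which 9 were nearest to it, and its strongest lay 22.9 kb upstream with 6.0-fold and 5.37-fold (scaffold 00013, 19308851 to 19309247), nearer to MICAL2.

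SFRP5 had 19, although its RNA, at 0.37 TPM, was below the rule for expression. The strongest, 53.6 kb upstream (scaffold 00057, 3322626 to 3323725) and nearer to GOLGA7B, had 4.62-fold in replicate 1 and 36.8-fold in replicate 2, so its mean of 20.7-fold rests on 1 replicate. RSPO4, also not expressed, had 16, of which 11 were nearest to it. The strongest of these overlapped the end of the gene, 29.7 kb from its start, at 4.87-fold and 7.06-fold (scaffold 00004, 9369897 to 9370273). WNT4 had 16, all nearest to it, and its strongest was a 1488-bp peak 66.9 kb upstream with 7.39-fold and 6.80-fold (scaffold 00010, 33182555 to 33184042).

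WNT5A resembled WNT4 and DKK1 in this respect, with 15 H3K27ac-only peaks and no other TSS in the window, and 7 of them lay inside other genes. FZD10 likewise was the nearest TSS to all 13 of its peaks, which all lay between genes. WNT9A was also the nearest TSS to all 13 of its peaks, with 1 other TSS in its window. The same held for SFRP1, AXIN2, FZD5, FZD6, LRP6 and WNT16, which had 5 peaks or fewer. Next to the peak near SFRP5, the strongest near any member stood 46.5 kb upstream of WNT11 (scaffold 00005, 17206901 to 17207603), with 12.4-fold and 12.6-fold, and was nearer to a tRNA gene.

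RSPO3, RSPO2 and DKK2 had no H3K27ac-only peak within 100 kb, and no other TSS lay there either. All were expressed and carried both marks at the TSS. DKK2 had 7 H3K4me3-only peaks in its window, the most of any member. Within 250 kb, RSPO3 had 3 H3K27ac-only peaks, and RSPO2 and DKK2 had 1 each. At the low end were also WNT16, LRP6 and LGR5, with 1 peak within 100 kb.

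**Figure D4:**
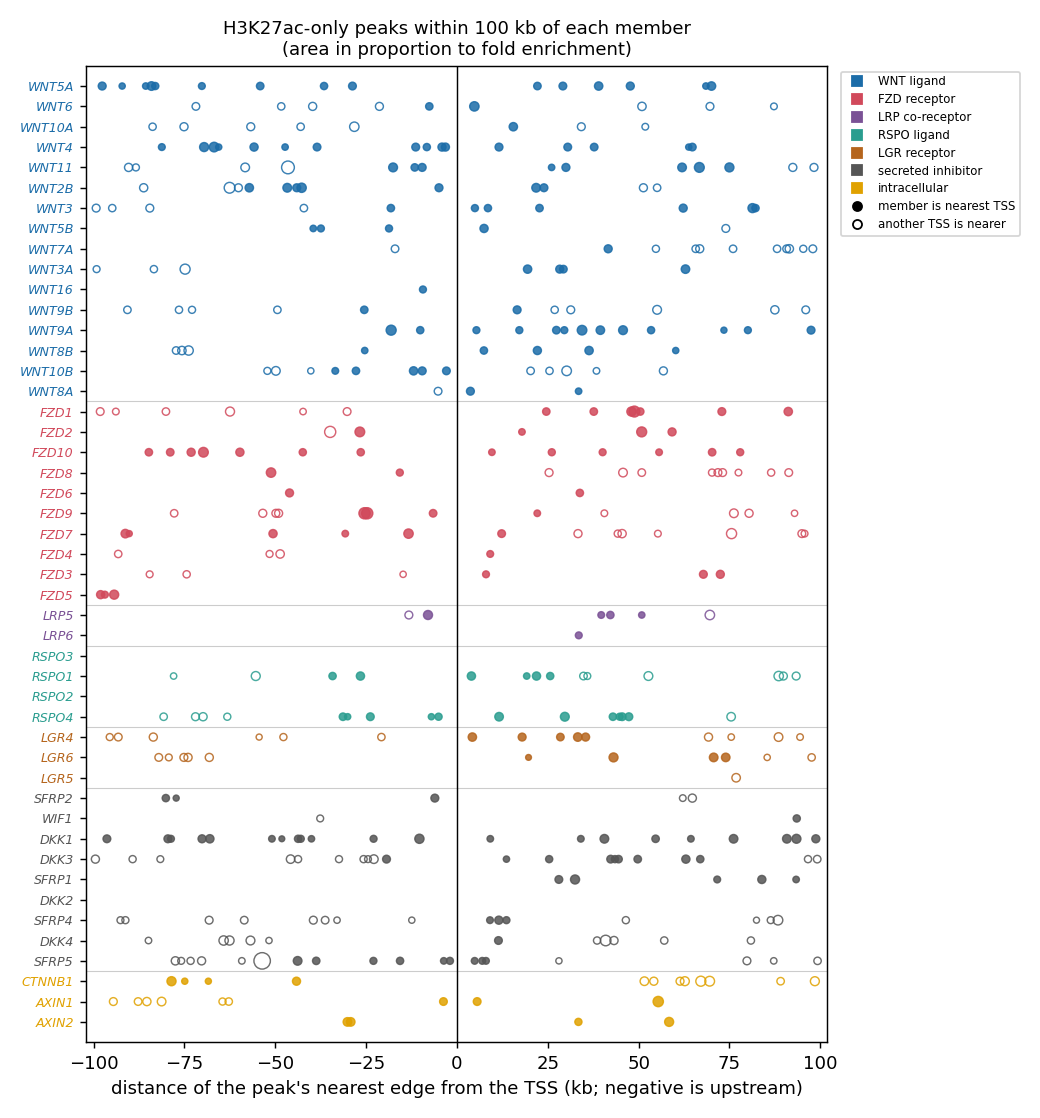
Position of each H3K27ac-only peak within 100 kb of a member's TSS, as distance in kb with negative values upstream; filled circles are peaks whose nearest TSS is the member, open circles are nearer to another gene, and the area is in proportion to fold enrichment. DKK1, WNT4, WNT5A, FZD10 and WNT9A have filled circles throughout, as do some members with 5 peaks or fewer. The rows of RSPO2, RSPO3 and DKK2 are empty.

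Members stood next to each other at 3 places. WNT10A and WNT6 were 35.4 kb apart, and the start of 1 gene model without a symbol lay between them. They shared 8 of the 9 H3K27ac-only peaks found near either. The strongest shared peak lay inside WNT6, at 6.91-fold and 6.55-fold. Both windows also held many peaks with both marks over 1 kb from the member's own start. There were 24 for WNT10A and 19 for WNT6, beside a median of 5 for named genes. The 2 windows overlap, and such peaks can mark the starts of other genes, which was not tested. Near WNT10A lay 7 other TSS and near WNT6 5, beside a median of 2 for named genes. LGR6 had 24 peaks with both marks and 3 other TSS in its window, and LRP5 had 22 such peaks and 2 other TSS.

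WNT3 and WNT9B pointed away from each other 68.0 kb apart, shared 8 of 14 peaks and had 2 between their starts. WNT9A and WNT3A, also in opposite directions, were 93.8 kb apart and shared only 3 of 17, with 2 between their starts. WNT9A was the nearest TSS to the strongest shared peak, 18.1 kb upstream of its start with 6.19-fold and 9.17-fold, while WNT3A had the higher RNA of the pair in every library. At each place the RNA levels of the neighbours could differ: WNT3 was above WNT9B, and WNT6 above WNT10A, in all libraries.

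The other pathway genes are given by list, beside the 75.3% of named genes that were expressed. Of the listed genes, APC, GSK3A, ZNRF3, MYC, KREMEN1, NDP, TIKI1 and CELSR1 matched no row and were not analysed here. Both genes needed to make and release WNT proteins were expressed, the carrier WLS at 151 ± 5.78 TPM and the acyltransferase PORCN at 74.8 ± 21.7 TPM. Of 13 listed transducers 11 had a gene model and 9 were expressed, led by DVL3 (131 ± 25.7 TPM), a Dishevelled adaptor, the kinase CSNK1A1 (118 ± 5.48 TPM) and DVL1 (63.5 ± 5.52 TPM). APC2 stood at 0.35 TPM and PYGO2 had no count in any library.

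All 4 TCF/LEF factors were expressed, with TCF7L1, often a repressor, at 83.5 ± 9.43 TPM, LEF1 at 57.7 ± 8.53 TPM and TCF7L2 at 17.6 ± 3.93 TPM. Of 13 listed feedback and target genes 11 had a model, and all 11 were expressed, led by the cyclin CCND1 (83.2 ± 11.8 TPM), NKD2 (46.7 ± 10.3 TPM) and APCDD1 (40.6 ± 9.02 TPM). Of 11 other extracellular modulators 8 had a model and 6 were expressed, led by the DKK receptor KREMEN2 (242 ± 33.5 TPM), the glypican GPC4 (128 ± 28.4 TPM) and the antagonist SOSTDC1 (92.7 ± 12.3 TPM). The pair that missed the rule, named after their values were seen, was SOST at 1.38 TPM and TRABD2B at 1.75 TPM. KREMEN2 was thus higher than any secreted inhibitor of the 9.

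Receptors and polarity proteins of the routes without beta-catenin had a model in 15 of 16 listed cases, and all 15 were expressed, led by SCRIB (151 ± 4.12 TPM), PTK7 (66.0 ± 9.31 TPM) and PRICKLE3 (37.6 ± 11.7 TPM). The order of levels in these lists, and the pair of unexpressed transducers, are visible in the plot of other pathway genes.

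**Figure D5:**
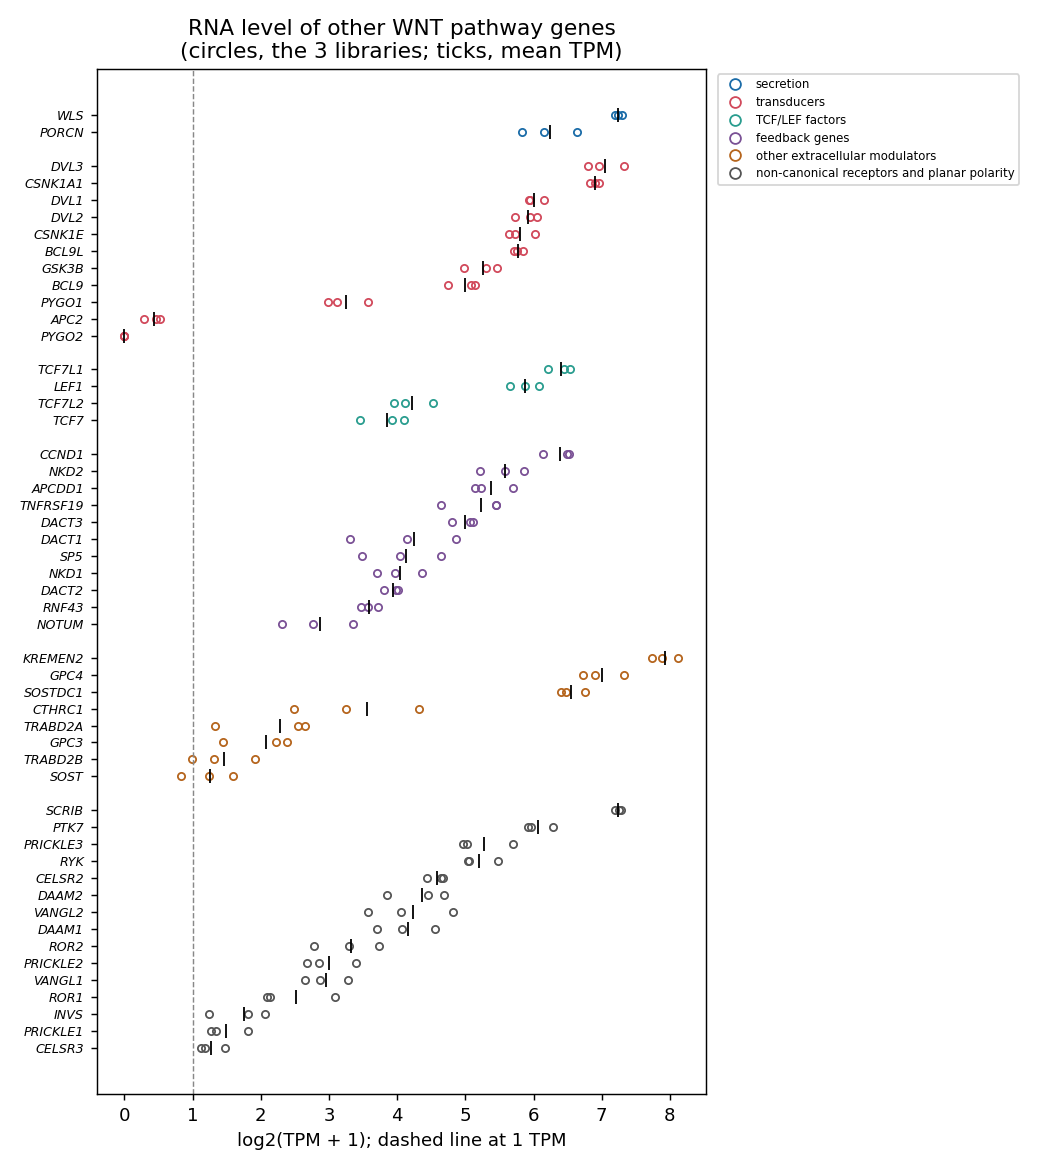
RNA level of the other WNT pathway genes on the log2(TPM + 1) scale, by list; circles are the 3 libraries, ticks the mean TPM, and the dashed line marks 1 TPM. WLS, DVL3, KREMEN2 and SCRIB lie at the top of their lists, and APC2 and PYGO2 lie below the line.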

How the data were processed

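ChIP-seq peaks were called by the authors with MACS2 2.1.1, separately per replicate against its input, after trimming (cutadapt 1.9.1), alignment to the study's dunnart assembly (Bowtie2 2.3.5.1), filtering (SAMtools 1.9) and duplicate removal (Picard 2.23.1). Each deposited peak has a fold enrichment (a ratio) and −log10 values of its p-value and its q-value. The deposited score, a display value, was not used. For RNA, the authors used Trimmomatic 0.39, HISAT2 2.21 and stranded featureCounts (Subread 2.0.1) on Tasmanian devil gene models placed by Liftoff. The deposited table holds unscaled counts; 11 genes split over 2 lines were left out of levels.

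From these counts and the summed exon lengths, TPM values were derived in Python 3.11.15. The rule named every member, the strongest H3K27ac-only peak of the 5 members with most, and, of each other list, the 3 highest genes and those at or under 1 TPM. Functions for peaks and TPM were tested on simulated data. Members and lists were chosen with earlier results of these data known. Alternatives were edgeR 4.0.16 scaling factors (TMM, RLE), thresholds, windows, overlaps and single replicates. With 1 tissue and age no test was run. A planned search of promoter sequence was not run, and input reads were not used here. Counts carry no molecular identifiers, so the limits given for 0 counts cover counting error only.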

Additional observations from a re-analysis of the deposited data

How the results depend on the processing

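The margin used was 1.5 times the reported count, or 1 SD of the library medians. Counts of 38 to 44 out of 47 members cannot rise beyond it, so staying within it says little for them. Of 65 comparisons of the 7 summary values with an alternative, 61 stayed within this margin. The exceptions all concern the median number of H3K27ac-only peaks per member, 11 as reported: it was 4 with a 50 kb window, 24 with a 250 kb window, 4 when only peaks nearest to the member were counted, and 4 when peaks touching an H3K4me3 peak of either single replicate were removed. That last setting also removes peaks that touch only the part of a replicate 2 peak reaching beyond its reproducible replicate 1 partner. The fall to 4 therefore does not show that the touched H3K4me3 peaks were not reproducible. Leaving out 1 library gave 38 to 39 expressed members and a median log2(TPM + 1) of 3.85 to 4.11 (3.92 with all); WNT9A joined the expressed members without FP1. Either ChIP replicate alone gave 43 members with H3K4me3, 44 with H3K27ac and 46 with an H3K27ac-only peak. TMM and RLE scaling kept 38 expressed members, whereas a threshold of 5 TPM left 31 and a threshold of 0.5 TPM gave 39. Leaving out the WNT10B model, an alternative chosen after seeing the data, gave 38 expressed, 43 marked and a median of 10 peaks.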
